A study of Mus musculus with 10 samples.

Results

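The IL-1 family genes of mouse adipocyte precursors (APs) are described here through 9 genes that cover its ligands, receptors and processing enzyme: Il1b, Il18, Il33, Il1rn, Il1r1, Il1rl1, Il1rap, Il1r2 and Casp1. They were taken by gene symbol from the 18384 genes listed in the mRNA-seq data, and all 9 were listed. APs from the subcutaneous white adipose tissue of C57BL/6J mice were depleted of cells bearing CD45 or CD31, selected for SCA-1 and cultured. In 3 libraries the cells had no added cytokine (control, replicates 1, 2 and 3), and in the other 3 IL-4 was in the medium for 4 days (IL-4, replicates 4, 5 and 6). No genotype or age is given in the labels, and nothing in them says whether replicates came from separate animals or cultures, so that p-values measure the spread between these libraries, which may be technical.

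IL-1 family cytokines are early signals of tissue damage and inflammation. The receptor IL-1R1 (Il1r1) binds IL-1α and IL-1β and then recruits the accessory protein IL-1RAP (Il1rap). Il1rap also serves ST2 (Il1rl1), the receptor of IL-33, an alarmin that stromal cells of fat and other tissues store in the nucleus and that acts on type 2 immune cells. Several members dampen the signal: the antagonist IL-1Ra (Il1rn) occupies IL-1R1 without activating it, the decoy IL-1R2 (Il1r2) binds ligand but cannot signal, and a secreted form of ST2 captures IL-33. Caspase-1 (Casp1), the enzyme of inflammasomes, cleaves the precursors of IL-1β and IL-18.

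The libraries held 28526779 to 28674597 expected counts in the control group and 28914008 to 29057784 in the IL-4 group. Defining markers of the labelled cell type were read in every library. Pdgfra had 9331 to 10164 normalized counts in control and 11610 to 15556 in APs given IL-4, and Ly6a, which encodes SCA-1, had 2641 to 3174 and 5992 to 7817. Cd34 was lower in the control libraries, with 202 to 251, than in the IL-4 libraries, with 2129 to 2390. Of all 12 AP and fibroblast markers, 7 rose (19.0% of all genes tested did), 2 fell (18.4% did) and 3 did not pass the test. Those that fell, named after their values were seen, were Pdgfrb and Lum. Pdgfrb had 24881 to 29079 in control and 15482 to 18529 in APs given IL-4 (1.58-fold lower), and Lum was 1.53-fold lower. A normalized count is an expected count divided by the scaled size of its library and brought to a common size. Markers of macrophages were also read in all 6 libraries despite the removal of CD45-positive cells. Ptprc, which encodes CD45, had 2382 to 2683 normalized counts in control and 1234 to 1348 in APs given IL-4, and Csf1r, the receptor of the macrophage growth factor CSF1, had 8694 to 10411 and 4516 to 4739. Of 14 macrophage markers, 11 fell (18.4% of all genes tested did), 2 rose (19.0% did) and 1 did not pass the test. Their summed normalized counts were 115563 to 144075 in control and 72253 to 79419 in APs given IL-4, and without the abundant Lyz2 they were 47960 to 58322 and 51540 to 53045. In such bulk libraries, fewer cells of a type and less RNA per cell cannot be told apart. Control replicate 3 and IL-4 replicate 6 held relatively more counts from short transcripts than the other libraries of their groups. The slope of the log2 deviation from the group mean per doubling of transcript length, over 12241 genes, was -0.0761 and -0.155, against 0.0175 to 0.0903 in the other libraries.

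The starts of the 2 genes with the largest differences, Il1rl1 and Il1rn, are shown first, since both genes have transcripts that begin at different places. Both genes also encode different proteins, but for Il1rl1 the starts do not separate these. Secreted ST2 has a transcript from each start, and the transcript of membrane ST2 begins at the downstream start. Each window is RefSeq sequence of the build GRCm38.p6, from 250 bases before to 50 bases after an annotated start, on the plus strand. Capitals mark matches to TTCNNNNGAA, the spacing preferred by STAT6, the transcription factor that IL-4 activates, to TTCNNNGAA, the spacing of other STAT factors, or to TGANTCA, an AP-1 motif. All 3 patterns read the same on both strands.
Il1rl1, upstream start, chr1:40429320-40429619: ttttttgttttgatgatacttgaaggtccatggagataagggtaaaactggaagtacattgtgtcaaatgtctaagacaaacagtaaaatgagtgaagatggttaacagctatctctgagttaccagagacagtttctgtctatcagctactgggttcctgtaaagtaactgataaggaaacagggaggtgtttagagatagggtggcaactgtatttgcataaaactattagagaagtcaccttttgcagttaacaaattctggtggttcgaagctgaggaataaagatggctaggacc
Il1rl1, downstream start, chr1:40439379-40439678: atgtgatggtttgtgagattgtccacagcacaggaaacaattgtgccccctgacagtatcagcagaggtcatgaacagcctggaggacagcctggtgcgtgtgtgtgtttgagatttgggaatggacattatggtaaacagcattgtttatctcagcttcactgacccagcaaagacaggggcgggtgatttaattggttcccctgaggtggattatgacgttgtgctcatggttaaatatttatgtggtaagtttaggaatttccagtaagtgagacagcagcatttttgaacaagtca
Il1rn, start of isoform 1, chr2:24336610-24336909: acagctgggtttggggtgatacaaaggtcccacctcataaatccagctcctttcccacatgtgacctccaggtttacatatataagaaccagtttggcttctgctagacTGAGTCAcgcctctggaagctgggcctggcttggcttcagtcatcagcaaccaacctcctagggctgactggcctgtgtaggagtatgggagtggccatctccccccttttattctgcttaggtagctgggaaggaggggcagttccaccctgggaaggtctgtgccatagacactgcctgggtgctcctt
Il1rn, start of isoform 2, chr2:24345121-24345420: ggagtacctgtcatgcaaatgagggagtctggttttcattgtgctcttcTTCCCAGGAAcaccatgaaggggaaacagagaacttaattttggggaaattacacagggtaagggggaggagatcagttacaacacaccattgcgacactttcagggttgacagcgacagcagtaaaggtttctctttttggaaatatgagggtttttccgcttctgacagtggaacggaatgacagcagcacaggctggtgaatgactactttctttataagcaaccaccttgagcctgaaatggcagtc
Neither Il1rl1 window held any of the 3 patterns. The Il1rn window of isoform 2, the form that carries a signal peptide, held a TTCNNNNGAA match that began 201 bases before the start, and the window of isoform 1 held a TGANTCA match 141 bases before it. Promoter windows were found for all 9 genes, 14 windows in total. Of these, 4 held TTCNNNNGAA: those of Il18 and of the upstream start of Il33, 46 and 36 bases before the start, and 2 overlapping windows of Il1rn that share a single match. The window of Il1r2 held a TTCNNNGAA match 111 bases before the start. Among all 32851 promoter windows, 6.95% held TTCNNNNGAA, 8.30% held TTCNNNGAA and 7.81% held TGANTCA. A match describes the letters in a window and does not show binding.

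IL-4-treated APs differed from control APs most in Il1rl1, which encodes both membrane and secreted ST2, and in the antagonist gene Il1rn. Il1rl1 rose 13.1-fold, Il1r1 rose 2.18-fold and Il1rap rose 1.37-fold, while Il1rn fell to 0.236 of its control level and Il33 to 0.82. Il1r2, Il18 and Casp1 did not pass the test, and Il1b had too few reads to be tested. By the quasi-likelihood test of edgeR, with p-values adjusted after Benjamini and Hochberg over all 14009 genes tested, 3 of the 8 tested members were higher at an adjusted p under 0.05, where 19.0% of all genes tested were higher. Likewise, 2 of 8 were lower, where 18.4% of all genes were. With the additional requirement of a log2 fold change beyond 1, which was used in the study, 2 were higher (5.77% of all genes tested) and 1 was lower (5.26%).

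The scaling of the libraries matters for the small differences. TMM factors were 1.053 to 1.072 in control and 0.9321 to 0.9611 in IL-4 libraries, and scaling by library totals alone lowered the median log2 fold change of all genes tested by 0.17. It changed the split of higher and lower genes from 809 and 737 to 657 and 961 beyond a log2 fold change of 1, and from 2663 and 2582 to 1704 and 4963 at any fold change. Fold changes below are relative to the TMM scale.

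**Figure D1:**
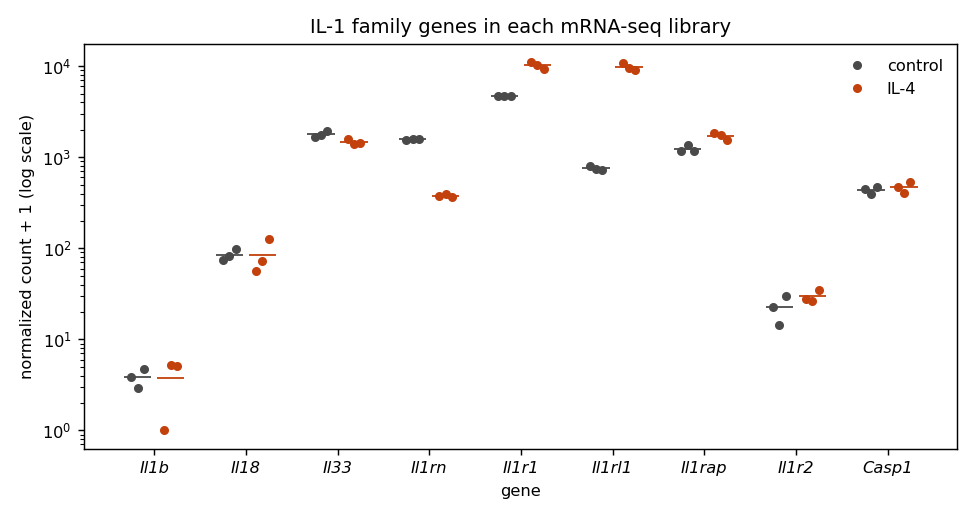
Normalized count plus 1 (log scale) of the 9 genes in each of the 3 control (grey) and 3 IL-4 (orange) libraries, with horizontal lines at the group means. The groups lie far apart for Il1rl1 (717 to 801 against 9201 to 10734) and Il1rn (1560 to 1607 against 361 to 390), and they overlap for Il18, Il1r2 and Casp1.

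Il1rl1 (Entrez 17082, chr1:40404864-40465418) encodes ST2. Its normalized counts were 801, 748 and 717 in control replicates 1 to 3, and 10734, 9676 and 9201 in IL-4 replicates 4 to 6. The 3 IL-4 libraries were thus all far above the 3 control libraries. The log2 fold change was 3.71 ± 0.08 (SE, n = 3 libraries per group; adjusted p = 8.32e-08, edgeR), a 13.1-fold rise with a 95% interval of 11.4 to 15. Under the 13 alternative settings and left-out libraries, the log2 fold change lay between 3.43 and 3.88.

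Mast cells and some lymphoid cells are known to carry ST2, and their markers were read at low levels or not at all. For mast cells, Fcer1a was not listed in any library and Cpa3 had 0 to 1.92 normalized counts. Kit, which mast cells share with other cells, had 53.5 to 58.0 in control and 69.2 to 104 in APs given IL-4. The summed level of the 10 mast cell and basophil markers was 64.7 to 68.1 in control and 114 to 164 in APs given IL-4. Of these markers 2 were tested. Kit rose 1.47-fold (adjusted p = 0.0454, edgeR). Tpsab1, a mast cell tryptase named after its values were seen, had 0, 2.88 and 0 normalized counts in control and 33.2, 49.1 and 55.8 in APs given IL-4, and it entered the test only through the IL-4 group. With DESeq2, 1 of the 2 was called. The part of mast cells in the Il1rl1 difference was not tested.

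For lymphoid cells, Cd3e of T cells was not listed in any library. Il7r, a receptor of lymphoid cells that some stromal cells also express, had 191, 150 and 158 normalized counts in control and 449, 398 and 432 in APs given IL-4. The 10 lymphoid markers summed to 258 to 294 and 474 to 512. Of the 4 tested, 2 were higher and 1 lower, beside 19.0% and 18.4% of all genes tested. Besides Il7r, Gata3, a transcription factor of type 2 lymphoid cells, rose 1.51-fold (adjusted p = 0.0402, edgeR), from 27.6, 21.1 and 23.5 normalized counts to 35.3, 37.4 and 36.1. Cd4, which macrophages can also express, fell 5.04-fold, and both were named after their values were seen. With DESeq2, 1 lymphoid marker was higher and 1 lower. The part of these cells in the Il1rl1 difference was not tested. Endothelial cells can also carry ST2. Of 8 endothelial markers 2 rose and 4 fell, beside 19.0% and 18.4% of all genes tested, and 2 did not pass the test. The 8 markers summed to 1535 to 1649 in control and 2480 to 3122 in APs given IL-4. Cdh5, which encodes VE-cadherin, had 354 to 366 normalized counts in control and 96.0 to 139 in APs given IL-4, and Pecam1, which encodes CD31, had 192 to 222 and 156 to 198. Vwf, named after its values were seen, rose 8.43-fold and makes up most of that sum in the IL-4 libraries, with 1325 to 1752 normalized counts. Tek, also named after its values were seen, rose 1.75-fold, from 367, 422 and 317 normalized counts to 663, 712 and 565. The part of endothelial cells in the Il1rl1 difference was not tested. Markers of APs and of macrophages, given above, were read in the same libraries. The part of those cells was not tested either.

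RSEM also reported a transcript length for each gene that is weighted by the abundance of its transcripts, which bears on the form of ST2. RefSeq holds 3 transcripts of Il1rl1. The membrane receptor (isoform a) has 11 exons and 5300 nucleotides, and the secreted form (isoform b) has 8 exons and 3071 or 2904 nucleotides, the latter from the upstream start. The weighted length was 3480.89, 3523.97 and 3427.7 nucleotides without IL-4 and 3380.92, 3378.4 and 3332.66 with it. All 6 values were therefore nearer to the lengths of isoform b, and the groups did not overlap. The mean was 3478 ± 48.2 in control and 3364 ± 27.2 in APs given IL-4 (SD, n = 3), a difference of 114 nucleotides at the smallest p that 3 against 3 libraries allow (two-sided exact permutation test, p = 0.1). If the transcripts in the authors' index had the lengths above and isoform b were all of the 3071-nucleotide transcript, isoform a would make up 16.0% to 20.3% of Il1rl1 transcripts in control and 11.7% to 13.9% in APs given IL-4. If isoform b were all of the 2904-nucleotide transcript, it would make up 21.9% to 25.9% and 17.9% to 19.9%.

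These shares have limits. Of 12887 genes with a single transcript, 55.7% had the same length in the deposited data as in the RefSeq annotation used here (within 1 nucleotide), and 93.3% were within 10%. In each group the shortest weighted length was also found in the library with relatively more counts from short transcripts, and the part of that shift in the difference was not tested.

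**Figure D2:**
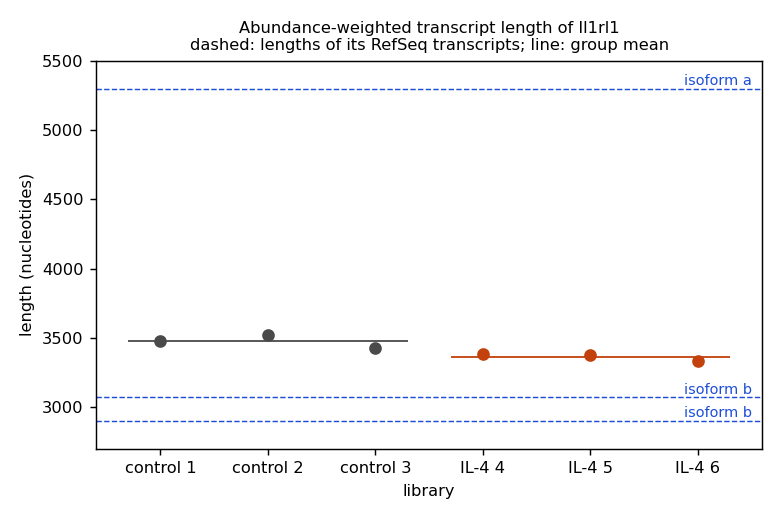
Abundance-weighted transcript length of Il1rl1 in nucleotides for each library, with lines at the group means and dashed lines at the lengths of the 3 RefSeq transcripts. All 6 libraries lie between 3332.66 and 3523.97 nucleotides, closer to isoform b (2904 and 3071) than to isoform a (5300), and the 3 IL-4 libraries lie below the 3 control libraries.

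Il1r1 (Entrez 16177, chr1:40222480-40316201), the signaling receptor of IL-1, had 4669, 4686 and 4737 normalized counts in control and 11027, 10375 and 9308 in APs given IL-4. Every IL-4 library was thus above every control library, and the spread between libraries was wider with IL-4 than without. The log2 fold change was 1.12 ± 0.07 (adjusted p = 1.16e-05, edgeR), a 2.18-fold rise with an interval of 1.94 to 2.45. It was 0.95 with library totals and 0.93 and 0.95 with limma on log2(FPKM + 1) and log2(FPKM + 0.1), so that the adjusted p stayed under 0.05 but the fold change of 2 was not reached. Both annotated Il1r1 transcripts differ by few nucleotides (4739 and 4808), and the weighted lengths of the groups overlapped (4768.00 to 4784.45 and 4762.9 to 4772.24).

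Il1rap (Entrez 16180, chr16:26581509-26730128) encodes the subunit that both receptors need for signaling. It had 1176, 1375 and 1174 normalized counts in control and 1841, 1735 and 1538 in APs given IL-4, without overlap. Its log2 fold change of 0.46 ± 0.09 (adjusted p = 0.00568, edgeR) was a 1.37-fold rise with an interval of 1.18 to 1.59. Its expected count in IL-4 replicate 6 was not whole (1490.05), as happens when RSEM divides a read between genes. A short Il1rap transcript (2352 nucleotides) encodes the soluble isoform b. Against isoform a (4576 nucleotides), the weighted length allowed at most 4.78% to 7.80% of this transcript in control and 6.35% to 7.60% in APs given IL-4, on the same assumption about transcript lengths.

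Il1r2 (Entrez 16178, chr1:40084692-40125230), the decoy receptor, was near the limit of detection. It had 21.9, 13.4 and 29.1 normalized counts in control and 26.7, 25.6 and 34.1 in APs given IL-4, and the groups overlapped. The log2 fold change of 0.42 ± 0.30 did not pass the test (adjusted p = 0.31, edgeR), and its interval ran from a fold change of 0.831 to 2.16. Neutrophils are a known source of Il1r2. Of 8 neutrophil markers 2 were tested, and 0 passed at an adjusted p under 0.05 with edgeR or DESeq2, or at an unadjusted p under 0.05 with edgeR. The sum of the 8 markers was 77.0 to 100 in control and 92.0 to 103 in APs given IL-4. The 2 tested were Csf3r, with 51.3 to 54.7 normalized counts in control and 52.4 to 68.1 in APs given IL-4, and Cxcr2, with 24.7 to 41.3 and 34.1 to 38.4. S100a8, a major neutrophil transcript, had 0 to 4.69 normalized counts in any library. The part of neutrophils in the level of Il1r2 was not tested.

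Il1rn (Entrez 16181, chr2:24336860-24351491), the antagonist, had 1560, 1599 and 1607 normalized counts in control and 376, 390 and 361 in APs given IL-4. The spread within each group was small, and the groups lay far apart. The log2 fold change was -2.08 ± 0.06 (adjusted p = 2.62e-07, edgeR), which is 4.23-fold lower with an interval of 3.82 to 4.68. It lay between -2.25 and -1.97 under the 13 alternatives. Macrophages are a major source of IL-1Ra. In the same libraries, where 18.4% of all genes tested were lower, so were 11 of the 14 macrophage markers. Of the 4 defining ones, Csf1r was 2.07-fold and Ptprc 1.98-fold lower, and Adgre1, which encodes F4/80, and Itgam, which encodes CD11b, were 1.18-fold and 1.21-fold lower, with their calls lost in 5 and 4 of 13 alternatives. Other markers of the list, named after their values were seen, fell further: Cx3cr1, a chemokine receptor, from 1411, 1655 and 1738 normalized counts to 3.21, 3.20 and 5.16, Aif1 21.5-fold, Fcgr1 7.5-fold, Cd14 6.02-fold and Lyz2 3.13-fold. Mrc1 and Cd163, scavenger receptors of macrophages, rose 1.76-fold and 1.84-fold. Tyrobp and Spi1 fell 1.53-fold and 1.34-fold, and Cd68 did not pass the test (1.3-fold, adjusted p = 0.0572, edgeR). All of these were also named after their values were seen. The part of macrophages in the fall of Il1rn was not tested.

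Il33 (Entrez 77125, chr19:29925113-29960718), the ligand of ST2, had 1673, 1752 and 1924 normalized counts in control and 1571, 1402 and 1417 in APs given IL-4. The groups did not overlap, but the gap between the nearest libraries was smaller than the range within either group. The log2 fold change was -0.29 ± 0.08 (adjusted p = 0.0204, edgeR), or 1.22-fold lower with an interval of 1.08 to 1.38. It was negative under all 13 alternatives, but the call was lost in 4 of them. The log2 fold change was -0.30 without control replicate 2 (adjusted p = 0.0559), -0.23 without control replicate 3 (adjusted p = 0.0714) and -0.25 without IL-4 replicate 5 (adjusted p = 0.085), all with edgeR. With offsets for a trend with transcript length it was -0.17 (adjusted p = 0.0504, edgeR). Those offsets were fitted on library totals and used with TMM scaling, so they correct the shift between the groups a second time. The part of transcript length in this change was not tested.

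Il18 (Entrez 16173, chr9:50554700-50581841) encodes a ligand that caspase-1 activates. It had 73.2, 81.6 and 97.6 normalized counts in control and 55.6, 71.5 and 124 in APs given IL-4. The highest library of each group was the library with relatively more counts from short transcripts, and the groups overlapped fully. The fold change was 0.997 with an interval of 0.634 to 1.57 (adjusted p = 0.992, edgeR). Bco2 and Tex12 overlap the Il18 locus in the annotation, as noncoding genes do at Il1b, Il1r2, Il1rap and Il33, and whether the counting used the strand is not given in the sources used here.

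Il1b (Entrez 16176, chr2:129364569-129371164) had 3, 2 and 4 expected counts in control and 0, 4 and 4 in APs given IL-4. It did not reach the filter on low counts and was not tested, and no fold change is given for values this close to a floor of 3 counts. For this reason the planned ratio of Il1rn to Il1b could not be formed.

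Casp1 (Entrez 12362, chr9:5298517-5307281) had 446, 396 and 465 normalized counts in control and 470, 406 and 540 in APs given IL-4. The groups overlapped, and the fold change of 1.08 did not pass the test (interval 0.897 to 1.31, adjusted p = 0.49, edgeR). The sign of its log2 fold change, 0.11 on the TMM scale, turned to between -0.07 and -0.06 with library totals and with limma.

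**Figure D3:**
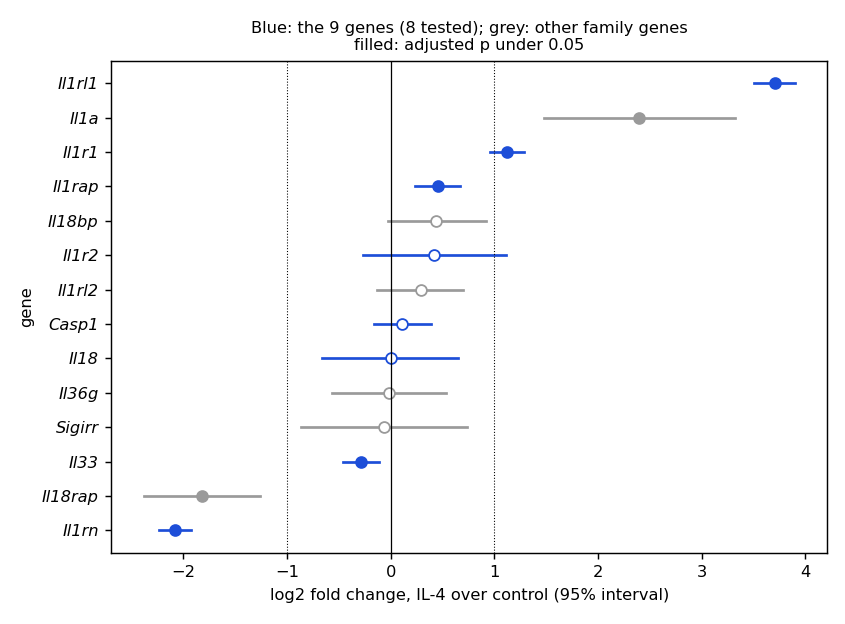
Log2 fold change (IL-4 over control) with 95% intervals from edgeR for the 8 tested members (blue) and the 6 other tested genes of the family (grey), with filled points at an adjusted p under 0.05 and dotted lines at -1 and 1. Il1rl1 (3.71) and Il1rn (-2.08) are at the ends of the members, and the intervals of Il1r2, Casp1 and Il18 span 0.

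Levels of different genes were compared per transcript length, as FPKM. In control APs the order was Il1r1 at 36.7 ± 0.622 FPKM (SD, n = 3), Il33 at 26.6 ± 2.10 and Il1rn at 24.4 ± 0.497, then Casp1 at 11.0 ± 0.983, Il1rap at 10.4 ± 0.854, Il1rl1 at 8.15 ± 0.416, Il18 at 3.89 ± 0.596, Il1r2 at 0.613 ± 0.230 and Il1b at 0.080 ± 0.030. Only the neighbours Casp1 and Il1rap overlapped between libraries. In IL-4-treated APs, Il1rl1 came first at 97.6 ± 6.13 FPKM and Il1r1 followed at 71.0 ± 4.92. Il33 was at 19.3 ± 1.13, Il1rap at 12.8 ± 0.969, Casp1 at 10.5 ± 1.66, Il1rn at 5.12 ± 0.140, Il18 at 3.44 ± 1.52 and Il1r2 at 0.730 ± 0.131, and Il1b was listed at 0, 0.11 and 0.11. Here the neighbours Il1rap and Casp1 overlapped, as did Il1rn and Il18. Il1rl1 thus moved from rank 6 to rank 1 and Il1rn from rank 3 to rank 6. In the IL-4 group Il1r1 and Il1rl1, the latter over all its transcripts, were above the shared subunit Il1rap in FPKM. In control, Il1rl1 was below Il1rap.

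**Figure D4:**
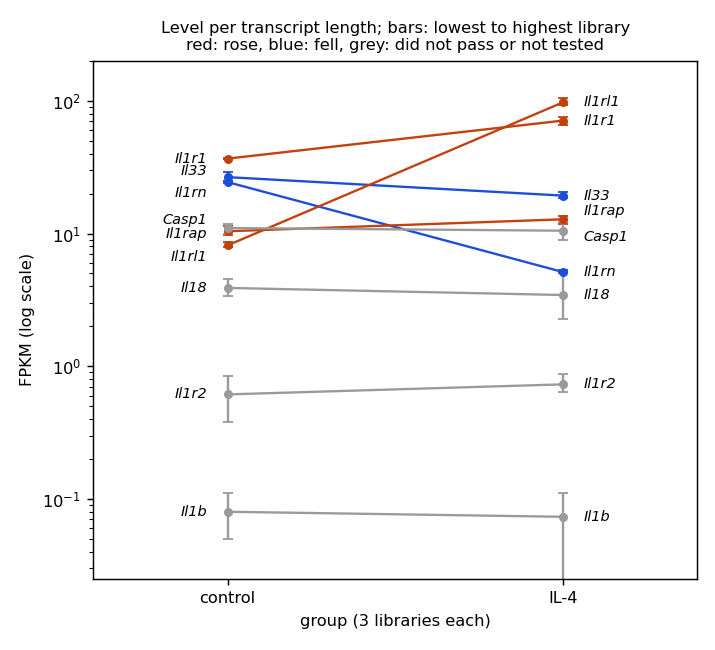
Mean FPKM (log scale) of the 9 genes in control and IL-4-treated APs, with bars from the lowest to the highest of 3 libraries, in red for genes that rose, blue for genes that fell and grey for genes that did not pass the test or were not tested. Il1rl1 crosses 5 genes, from 8.15 to 97.6 FPKM. The bar of Il1b in the IL-4 group runs off the axis, since it was listed at 0 in a library.

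Ratios within a library do not depend on how libraries are scaled. The FPKM ratio of Il1rl1 to Il33, over all transcripts of each gene, was 0.346, 0.305 and 0.273 in control and 5.09, 5.15 and 4.91 in APs given IL-4. Il33 was therefore above Il1rl1 in every control library and below it in every IL-4 library, a 16.5-fold difference of the geometric means. This ratio does not separate the membrane receptor from the secreted form, to which the weighted lengths above were nearer. The p of 0.1 is the smallest a two-sided exact permutation test of 3 against 3 libraries can give, and it was 0.3 after adjustment over the 3 ratios that could be formed. The ratio of decoy to signaling receptor, Il1r2 to Il1r1, was 0.0170, 0.0105 and 0.0224 in control and 0.00884, 0.00898 and 0.0133 in APs given IL-4, with overlap (exact p = 0.2, adjusted p = 0.3). Il18bp encodes a secreted protein that neutralizes IL-18. Its FPKM ratio to Il18 was 0.602, 0.394 and 0.486 in control and 0.858, 0.976 and 0.413 in APs given IL-4, also with overlap (exact p = 0.3, adjusted p = 0.3).

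Most of the receptors lie side by side on chromosome 1. Between Il1r2 and Slc9a4, a span of 546040 bases (chr1:40084692-40630731), the annotation places 7 protein-coding genes in the order Il1r2, Il1r1, Il1rl2, Il1rl1, Il18r1, Il18rap and Slc9a4. Il1rl2, the receptor of IL-36 between both genes that rose, had 786, 897 and 654 normalized counts in control and 1101, 1050 and 700 in APs given IL-4 (1.22-fold, adjusted p = 0.258, edgeR). It passed the test only without IL-4 replicate 6. Il18r1, the IL-18 receptor, begins 133 bases after the end of Il1rl1 and had 8, 4 and 11 expected counts in control and 6, 4 and 5 in APs given IL-4, too few to be tested. The next gene, Il18rap, which encodes the accessory subunit for IL-18, fell from 38, 38 and 43 expected counts to 7, 11 and 12, which is 3.54-fold lower (adjusted p = 0.000578, edgeR). It entered the test only through the control group. Slc9a4, a sodium-proton exchanger at the end of the span, had 8, 13 and 6 expected counts in control and 15, 35 and 39 in APs given IL-4 (adjusted p = 0.0116, edgeR), and it entered the test only through the IL-4 group.

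The other ligands were close to the limit of detection. Il1a (chr2:129299609-129310186), which lies next to Il1b and encodes IL-1α, had 5, 2 and 3 expected counts in control and 16, 13 and 20 in APs given IL-4 (5.28-fold, adjusted p = 0.0018, edgeR). It entered the test only through its level in the IL-4 group, and its control values are at the floor, so that the fold change depends on the model. Of the genes between Il1f8 and Il1rn on chromosome 2, Il1f9, which encodes IL-36γ, had 20.9 to 31.9 normalized counts in control and 22.5 to 25.8 in APs given IL-4. Il1f6 and Il1f8, which encode further IL-36 cytokines, and Il1f5, which encodes the IL-36 receptor antagonist, were not listed in any library. Il1f10 had 0, 3 and 8 expected counts in control and none in APs given IL-4. Of the 6 genes on this list 2 were tested and 1 was higher, beside 19.0% of all genes tested. Of 7 other receptors and decoys 4 were tested. Of these, 0 were higher at an adjusted p under 0.05 with edgeR or DESeq2, or at an unadjusted p under 0.05 with edgeR. Il18rap was lower with both tools, 1 of 4 beside 18.4% of all genes tested. Besides Il1rl2, the genes that did not pass were Il18bp (1.36-fold, adjusted p = 0.132) and Sigirr, an inhibitory receptor (0.959-fold, adjusted p = 0.907).

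Around caspase-1, the inflammasome sensors Nlrp3, Nlrp1b and Nlrc4 were lower and the adaptor Pycard was higher. Of 13 genes for inflammasomes and processing 12 were tested, of which 4 rose (19.0% of all genes tested did) and 6 fell (18.4% of all genes did), with a median log2 fold change of -0.36 beside 0.00 over all genes tested. Nlrp3, the sensor that assembles the best known inflammasome, had 490, 535 and 551 normalized counts in control and 183, 149 and 119 in APs given IL-4, and was 3.49-fold lower (adjusted p = 3.79e-05, edgeR). The sensors Nlrp1b and Nlrc4 were 3.04-fold and 2.62-fold lower. The sensors Nlrp1a (0.924-fold, adjusted p = 0.499) and Aim2 (0.751-fold, adjusted p = 0.0925), which did not pass the test, were named after their values were seen. In the same list, Card9, a signaling adaptor of myeloid cells, was 1.69-fold lower. Pycard, the adaptor that joins sensors to caspase-1, rose 1.56-fold, from 350, 356 and 440 to 523, 559 and 701. Casp4, the inflammatory caspase that senses lipopolysaccharide, rose 1.46-fold, and the pore-forming Gsdmd and the NLRP3 partner Nek7 rose 1.20-fold and 1.15-fold. The calls of Gsdmd and Nek7 were lost under 7 and 8 of 13 alternatives. Several of these genes are expressed mainly in myeloid cells. The macrophage markers given above were measured in the same libraries, with 11 of 14 lower, 2 higher and overlapping sums without Lyz2. The part of macrophages in these differences was not tested.

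The chain that relays the signal from the receptors was read through 18 genes. All were tested, and 1 rose and 4 fell, beside 19.0% and 18.4% of all genes tested. The other 13 did not pass, as most of all genes tested did not, and the median log2 fold change was 0.00. Irak3, an inhibitory kinase homologue of the pathway, had 909, 905 and 928 normalized counts in control and 1436, 1391 and 1322 in APs given IL-4 (1.51-fold, adjusted p = 0.000138, edgeR). Irak2, a kinase that sustains signaling, fell 1.48-fold, from 838, 763 and 793 to 493, 558 and 562 (adjusted p = 0.000767). The ubiquitin ligase Peli1 was 1.32-fold lower, and Map3k7, which encodes the kinase TAK1, and its partner Tab2 were 1.21-fold and 1.20-fold lower. The calls of Map3k7 and Tab2 were lost in 3 and 4 of the 13 alternatives. Myd88, the adaptor that binds the receptors, had 1316 to 1564 normalized counts in control and 1186 to 1313 in APs given IL-4 (adjusted p = 0.096). It was named after its values were seen.

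Genes that IL-1 is known to induce in fibroblasts moved in both directions. Of 24 such genes 19 were tested, of which 9 rose and 5 fell, beside 19.0% and 18.4% of all genes tested, and 5 did not pass. With DESeq2, 8 rose and 6 fell. The median log2 fold change was 0.09. Nos2, the inducible nitric oxide synthase, had 20.9, 10.6 and 11.3 normalized counts in control and 137, 190 and 168 in APs given IL-4 (11.5-fold, adjusted p = 2.02e-05, edgeR). The monocyte chemokine Ccl7 rose 2.97-fold, from 1994, 1993 and 2316 to 5476, 5757 and 7495. The adhesion molecule Vcam1 and the prostaglandin E synthase Ptges rose 2.26-fold and 2.10-fold. In contrast, Ptgs2, which encodes cyclooxygenase-2 upstream of Ptges, had 466, 461 and 449 normalized counts in control and 262, 232 and 184 in APs given IL-4, 2.03-fold lower (adjusted p = 0.000392). The cytokine gene Lif was 1.71-fold lower, the adhesion molecule Icam1 1.39-fold lower and Nfkbiz, a nuclear regulator of NF-kB targets, 1.23-fold lower. Many of these genes respond to other signals as well.

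**Figure D5:**
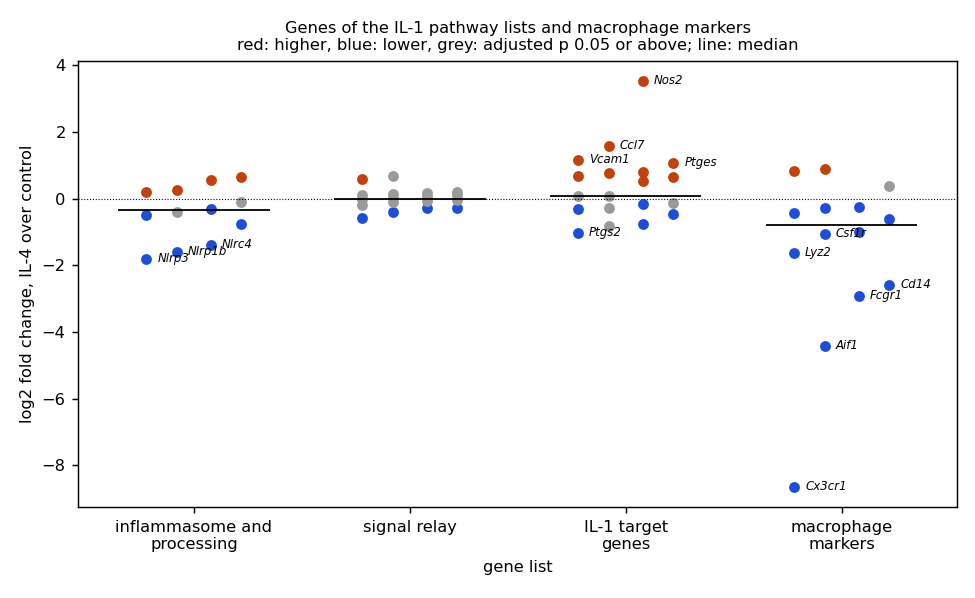
Log2 fold change (IL-4 over control) of each tested gene in 3 pathway lists and in the list of macrophage markers, in red where higher and in blue where lower at an adjusted p under 0.05, and in grey otherwise, with a line at the median. Inflammasome genes reach down to Nlrp3 (-1.81), target genes range from Ptgs2 (-1.02) to Nos2 (3.52), and the macrophage markers have a median of -0.80.

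The genes whose levels over the 6 libraries were most like those of the members were found among 11418 other genes with a mean of at least 100 normalized counts, by the root mean square difference of log2 levels centred on each gene's mean. For Il1rl1 these were Chrdl1, C3 and Igfbp5 at differences of 0.0792, 0.109 and 0.130, with log2 fold changes of 3.68, 3.66 and 3.49. For Il1rn they were Itgbl1, Fmnl1 and Nxpe5 at 0.0796, 0.0956 and 0.0980. Il1r1 was nearest to St3gal1, Lmbr1 and Errfi1 (0.0440 to 0.0541), Il1rap to Fut11, Snx33 and Pnpla8 (0.0418 to 0.0458), and Il33 to Mbd4, Otud6b and Rp2 (0.0343 to 0.0367). Likeness over 6 libraries is mostly likeness in the difference between both groups.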

How the data were processed

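The authors deposited expected counts per gene, which are not normalized, and FPKM, scaled by transcript length and library size. They filtered reads with SOAPnuke and used Bowtie2 and RSEM with RefSeq transcripts, and the submitters' processing notes also name HISAT, StringTie and the build mm10. Strandedness is not given in the sources used here. Genes absent from a library were taken as 0, 26 date-like symbols were recovered by Entrez number, and 1 row without a gene name (0.00016% of counts) was removed. Of expected counts above 0, 87.0% were whole.

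After rounding, edgeR 4.0.16 (R 4.3.3) was run with filterByExpr at a minimum count of 10 and a minimum total of 15, and with TMM scaling. Its quasi-likelihood test, tried first on simulated data, set 3 control against 3 IL-4 libraries, and p-values were adjusted after Benjamini and Hochberg over 14009 genes. The common biological coefficient of variation was 0.0939. Intervals are at 95%. Alternatives were DESeq2 1.42.0, upper-quartile scaling, library totals, an unfiltered fit, limma 3.58.1 on FPKM with a pseudocount of 1 or 0.1 on the log2 scale, and each library left out in turn. Offsets that remove a trend with transcript length, the weighted transcript lengths and the alternatives for genes outside the 9 were chosen after seeing the data. The offsets were fitted on counts scaled by library totals and used on top of TMM scaling.

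Genes named are the 9 members, up to 4 higher and 4 lower genes per pathway list (adjusted p under 0.05, mean of at least 50 normalized counts, largest fold change), a set of defining markers, the other family genes and neighbours in both gene clusters, and those stated as chosen later. The members and lists were chosen with earlier results of these data known. List genes were counted, and no list test was run. Of the 9 markers of mesothelial and epithelial cells, 6 were tested, of which 3 rose and 1 fell. Msln was at 0 to 12.4, Upk3b at 0 to 1.88 and Epcam at 21.6 to 40.3 normalized counts. Of 12 AP and fibroblast markers, 7 rose and 2 fell. For both lists the shares over all genes tested were 19.0% higher and 18.4% lower. Other work was done in Python 3.11.15 (numpy 2.4.6, pandas 2.3.3, scipy 1.17.1, with figures by matplotlib 3.10.9). The 4 small RNA libraries were not used here. A defining marker of the lymphoid list is not reported here.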

Additional observations from a re-analysis of the deposited data

How the results depend on the processing

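No paired analysis was possible because the control mRNA libraries are numbered 1 to 3 and the IL-4 mRNA libraries 4 to 6, so the groups share no replicate number. Il1rl1, Il1rn, Il1r1 and Il1rap kept their direction and an adjusted p under 0.05 under all 13 alternatives. With a left-out library their log2 fold changes were 3.65 to 3.76, -2.10 to -2.05, 1.08 to 1.19 and 0.41 to 0.54. With library totals and with limma on log2(FPKM + 1) or log2(FPKM + 0.1), 1 member instead of 2 was higher beyond a log2 fold change of 1. Il33 lost its call with the length-trend offsets (-0.17), which leaves 1 lower member. It ranged from -0.33 to -0.23 with a library left out, which leaves 1 or 2. Casp1 turned to -0.06, -0.06 and -0.07 with library totals and both limma fits. Il18 ranged from -0.40 to 0.23 with a library left out. Neither passed the test under any alternative, and the causes were not tested.

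Over all genes, limma on log2(FPKM + 1) called 349 higher and 352 lower genes beyond a log2 fold change of 1. At any fold change, 1704 were higher and 4963 lower with library totals, 1735 and 4898 with limma on log2(FPKM + 1), and 1723 and 4902 with limma on log2(FPKM + 0.1). With the length-trend offsets, 5696 were higher and 2246 lower, and these offsets correct the shift between the groups a second time. The 3 ratios kept their direction with normalized counts and with a library left out. Counts over the pathway lists were repeated with DESeq2 alone, and that of the target genes went from 9 higher and 5 lower to 8 and 6. Depth limits Il1b, Il1a and Il1r2, and 3 libraries per group limit exact tests to a p of 0.1.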
